A study of Mus musculus with 8 samples.

Results

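Retinal ganglion cells are described here through a listed set of 10 marker genes: the surface proteins Nrn1 and Thy1, the RNA-binding protein Rbpms, the transcription factors Pou4f1, Pou4f2 and Pou4f3, the synuclein Sncg, the neurofilaments Nefl and Nefm, and the glutamate transporter Slc17a6. Probe sets were named with the platform annotation, and each gene was read from its probe set with the highest mean. In all, 9 of the 10 genes were measured, out of 19938 genes tested. Each of the 9 was read by 1 probe set. Pou4f2 was not named by that annotation and was not analysed here.

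The samples are retinas of male C57BL/6 mice, 6 weeks old at the start, that received saline or MPTP. MPTP is a neurotoxin whose metabolite is taken up through the dopamine transporter and inhibits mitochondrial respiration. Saline and MPTP groups were each sampled after 1 week (7 days) and after 4 weeks (28 days), and every group has 2 arrays. Each group had 6 mice, and an array received RNA pooled from 4 retinas. The labels state no dose of MPTP, and they do not say if different mice went into the 2 pools of a group, so p-values measure only the spread between these arrays.

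Ganglion cells are the output neurons of the retina, and their axons form the optic nerve. POU4 transcription factors (also called Brn3) establish and maintain their identity, and Rbpms marks nearly all of them in rodent retina. Loss of transcripts of these markers is a common readout of ganglion cell damage in optic nerve injury and glaucoma models. In whole retina, fewer ganglion cells and less RNA per ganglion cell cannot be told apart.

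The arrays themselves differed in ways that did not follow the groups. The first principal component (38.3% of the variance) set saline 1 week array 2 and MPTP 1 week array 1 apart from the others, with scores of 15.7 and 19.1 against -9.39 to -0.39. These arrays, both of 1 week, also had the widest interquartile ranges of log2 signal, 1.90 and 1.92 against 1.65 to 1.74.

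With each gene set to 0 at its own mean over the 8 arrays, the mean of the 9 genes was 0.04 ± 0.08 (SD, n = 2, log2 units) in saline at 1 week and -0.02 ± 0.05 in MPTP at 1 week. It was -0.0034 ± 0.0062 in saline and -0.01 ± 0.06 in MPTP at 4 weeks. The highest array was saline 1 week array 2, at 0.09, and the lowest was MPTP 1 week array 1, at -0.05. Values of the groups overlapped. Single genes varied more than this mean: their median range over the 8 arrays was 0.43, against 0.33 over all genes. Over genes above percentile 50 of the mean signal it was 0.29. Of the 9 genes, 5 lay above 0.33. By the moderated F test of limma over the 4 groups, 0 of the 9 genes passed at an adjusted p under 0.05, against 0 of all 19938 genes. One gene, Nrn1, had an unadjusted p under 0.05 in that test, against 5.19% of all genes. Its adjusted p by limma was 0.891.

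Nrn1 was lower in all 4 MPTP arrays than in any saline array, by 0.30 ± 0.08 on the log2 scale over both times. The difference did not pass when adjusted over all genes (adjusted p = 0.973 by limma).

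**Figure D1:**
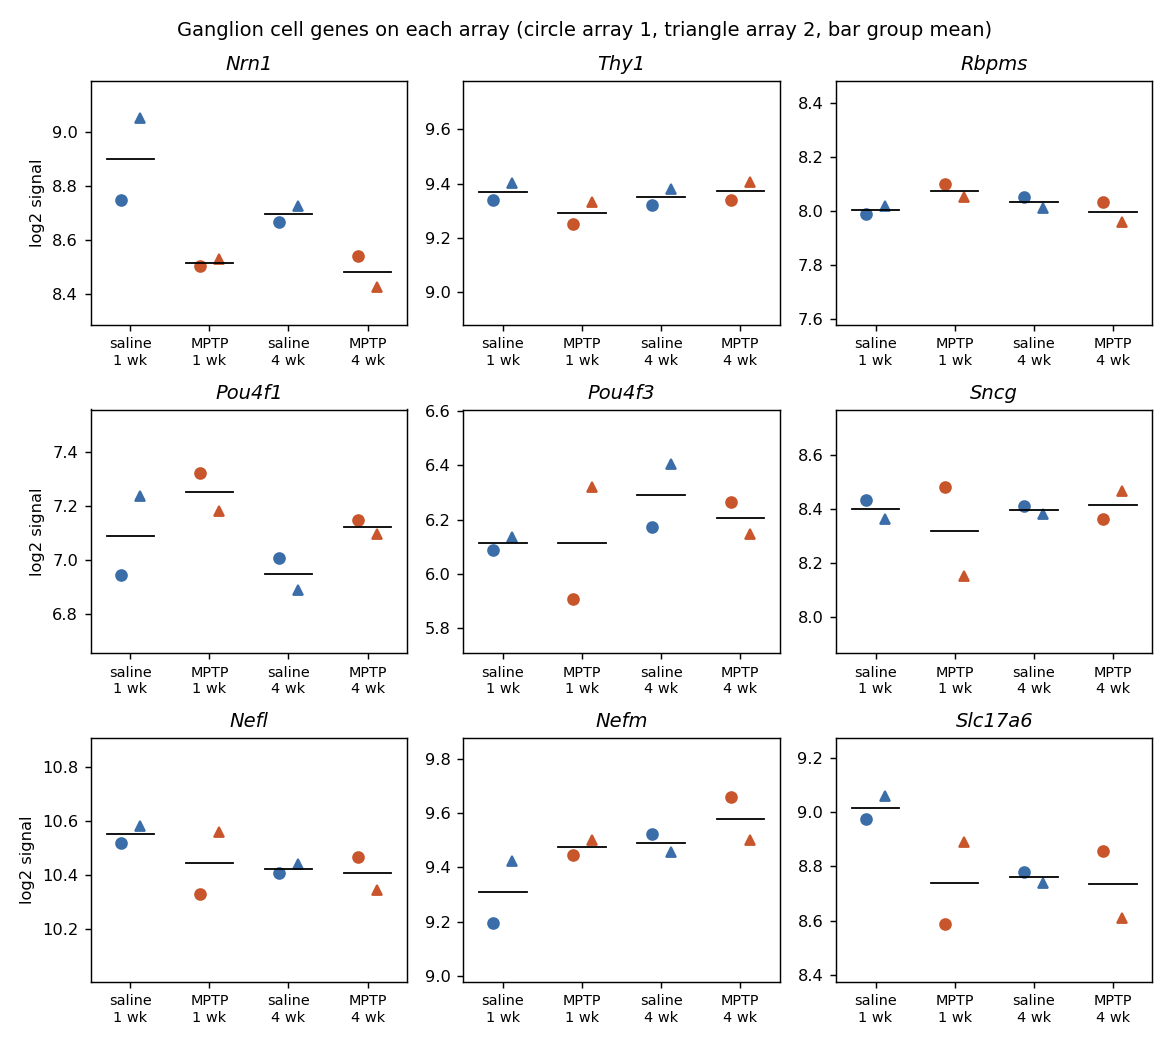
Log2 signal of 9 ganglion cell genes on each of the 8 arrays, 1 panel per gene, with saline in blue and MPTP in red. Circles are array 1, triangles array 2 and bars the group mean. Every panel spans the same height in log2 units. Nrn1 is the only panel in which all 4 MPTP arrays, 8.42 to 8.54, lie below all 4 saline arrays, 8.67 to 9.05.

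Nrn1 encodes neuritin, a surface protein held by a lipid anchor that is induced by neuronal activity and promotes neurite growth. It was read by probe set 10408689, and the gene lies at chr13:36725622-36734477 (GRCm38.p6, as are the positions of the other genes). In saline its log2 signal was 8.75 and 9.05 at 1 week and 8.67 and 8.73 at 4 weeks. In MPTP it was 8.50 and 8.53 at 1 week and 8.54 and 8.42 at 4 weeks. Saline 1 week array 2 was the highest.

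At 1 week Nrn1 stood at -0.38 ± 0.11 in MPTP against saline (log2 fold change ± SE of the limma fit, unadjusted p = 0.00615, adjusted p over all genes = 1.00). Its 95% interval ran from -0.63 to -0.14. At 4 weeks it stood at -0.21 ± 0.11 (interval -0.46 to 0.03, unadjusted p = 0.0815, adjusted p = 1.00). The difference of these effects was 0.17 ± 0.16 (unadjusted p = 0.304, adjusted p = 1.00), with an interval from -0.18 to 0.52 that includes 0. For Nrn1 it was 0.02 ± 0.13 without saline 1 week array 2, and 0.0058 ± 0.14 without both arrays that stand apart. With each array left out in turn, the difference of effects of Nrn1 ran from 0.02 to 0.32.

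Over both times, with time as a term, Nrn1 stood at -0.30 ± 0.08, which is 18.7% less signal with an interval from 27.7% to 8.48% less (unadjusted p = 0.00277, adjusted p = 0.973). By unadjusted p it was number 39 of 19938 genes, and number 43 from the lowest fold change. All 4 MPTP arrays lay below all 4 saline arrays for Nrn1 alone among the 9 genes. Such separation was seen for 1.49% of all genes (2.50% in either direction, 1.01% higher). With each array left out in turn, the value of Nrn1 at 1 week ran from -0.53 to -0.23. The smallest size there was without saline 1 week array 2, where Nrn1 stood at -0.23 ± 0.10. Over both times it stood at -0.22 ± 0.06 without that array (adjusted p = 0.999).

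**Figure D2:**
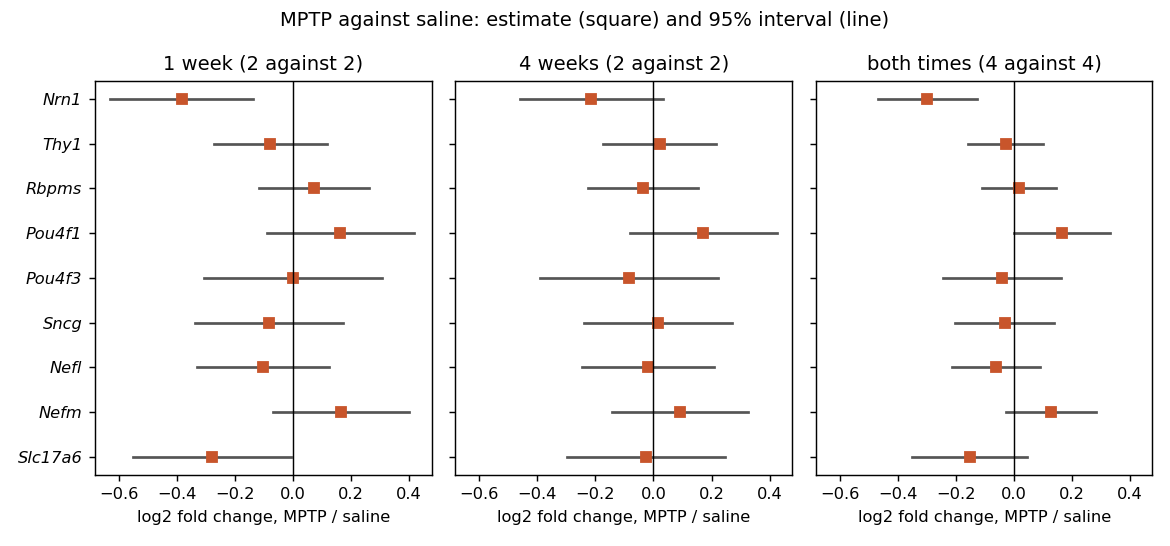
Log2 fold changes of MPTP against saline for 9 ganglion cell genes at 1 week, at 4 weeks and over both times. Squares are limma estimates and lines 95% intervals, not adjusted for the number of genes. The interval of Nrn1 lies below 0 at 1 week (-0.63 to -0.14) and over both times, and that of Slc17a6 reaches just below 0 at 1 week. That of Pou4f1 lies just above 0 over both times.

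The identity genes Pou4f1 and Pou4f3 did not share this pattern. Pou4f1 (Brn3a, probe set 10422179, chr14:104461675-104468118) encodes a transcription factor of most ganglion cells. Its log2 signal was 6.95 and 7.24 in saline and 7.32 and 7.18 in MPTP at 1 week, and 7.01 and 6.89 in saline and 7.15 and 7.09 in MPTP at 4 weeks. The groups overlapped at 1 week and not at 4 weeks, where both MPTP arrays were higher. Over both times Pou4f1 stood at 0.17 ± 0.07, with an interval from 0.0016 to 0.33 (unadjusted p = 0.0482, adjusted p = 0.973). At 1 week it stood at 0.16 ± 0.11 and at 4 weeks at 0.17 ± 0.11. The value of Pou4f1 at 1 week rested on the saline arrays: it was 0.02 without array 1 and 0.31 without array 2 of saline (limma unadjusted p = 0.877 and 0.0231, adjusted p of the latter = 0.506). With the array number as a block, the unadjusted limma p of Pou4f1 over both times was 0.0640. Across the alternative settings the value over both times ran from 0.11 to 0.23, with unadjusted p from 0.0111 to 0.143 and limma adjusted p from 0.611 to 1.00. Pou4f3 (Brn3c, probe set 10455335), which marks a minority of ganglion cells, was dim, at percentile 25.7 of the mean signal over all genes. It ranged from 5.91 to 6.41, with both the lowest value and 6.32 in MPTP at 1 week, and stood at -0.04 ± 0.09 over both times.

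Rbpms and Thy1 were among the steadiest of the set. Rbpms (probe set 10578123, chr8:33782643-33929922), which encodes an RNA-binding protein used to count ganglion cells, was 7.99 and 8.02 in saline and 8.10 and 8.05 in MPTP at 1 week. At 4 weeks it was 8.05 and 8.01 in saline and 8.03 and 7.96 in MPTP. The whole range over 8 arrays was 0.14, against a median range of 0.33 over all genes and 0.29 over genes above percentile 50. Its difference over both times was 0.02 ± 0.06, with an interval from -7.26% to 10.5% relative to the saline signal. Thy1 (probe set 10584628, chr9:44043384-44048579) encodes a surface glycoprotein of ganglion cells that T cells and fibroblasts also make. It ranged from 9.25 to 9.41 over the 8 arrays, and its interval over both times ran from -10.4% to 7.24%. Both MPTP arrays at 1 week, 9.25 and 9.33, were below both saline arrays, 9.34 and 9.40, by 0.08 ± 0.09 on average.

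Neurofilaments are the intermediate filaments that fill ganglion cell axons, and horizontal cells make them too. Nefl (light chain, probe set 10416175, chr14:68083863-68089095) was 10.52 and 10.58 in saline and 10.33 and 10.56 in MPTP at 1 week. At 4 weeks it was 10.41 and 10.44 in saline and 10.47 and 10.35 in MPTP. The groups overlapped at both times, and the difference over both times was -0.06 ± 0.07. Nefm (medium chain, probe set 10421100, chr14:68119545-68125004) was 9.20 and 9.42 in saline and 9.45 and 9.50 in MPTP at 1 week. At 4 weeks it was 9.52 and 9.46 in saline and 9.66 and 9.50 in MPTP. Saline 1 week array 1 was the lowest, and the difference over both times was 0.13 ± 0.07 (unadjusted p = 0.0974, adjusted p = 0.973). The chains had opposite signs over both times, and neither passed. The 6 measured horizontal cell genes (of 7) had mean log2 signals of 7.77 and 7.73 in saline and 7.82 and 7.84 in MPTP at 1 week, so that both MPTP arrays were higher. At 4 weeks these were 7.747 and 7.704 in saline and 7.796 and 7.755 in MPTP, and both MPTP arrays were again higher. The part of horizontal cells in the neurofilament values was not tested.

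Sncg (probe set 10418921, chr14:34370274-34374669) encodes gamma-synuclein, a cytosolic protein abundant in ganglion cells. It lay between 8.36 and 8.48 on all arrays except MPTP 1 week array 2, at 8.15. Its difference over both times was -0.03 ± 0.08.

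Slc17a6 (probe set 10553501, chr7:51621830-51671126) encodes the vesicular glutamate transporter VGLUT2, which loads the transmitter of ganglion cells into synaptic vesicles. It was 8.97 and 9.06 in saline and 8.59 and 8.89 in MPTP at 1 week. At 4 weeks it was 8.78 and 8.74 in saline and 8.86 and 8.61 in MPTP. Both saline arrays of 1 week were the highest of all 8. At 1 week Slc17a6 stood at -0.28 ± 0.12 (interval -0.55 to -0.0056, unadjusted p = 0.0462, adjusted p = 1.00), and at 4 weeks at -0.02 ± 0.12. The difference of these effects was 0.25 ± 0.17 (unadjusted p = 0.174, adjusted p = 1.00). Without MPTP 1 week array 1 the value at 1 week was -0.13 ± 0.13, and without both arrays that stand apart it was -0.08 ± 0.14. The difference of effects of Slc17a6 was 0.10 ± 0.16 and 0.06 ± 0.17 in those fits. With each array left out in turn, its value at 1 week ran from -0.43 to -0.13. Its difference of effects then ran from 0.10 to 0.40. With the array number as a block, its unadjusted limma p at 1 week was 0.0645.

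Promoters are shown for Slc17a6 and Pou4f1, which had an unadjusted p under 0.05 in opposite directions (lower at 1 week, higher over both times). For Slc17a6 the first of 2 annotated starts was taken. Each is the 250 bases before to 50 after the annotated start, 5′ to 3′ on the gene's strand, from RefSeq (GRCm38.p6). Capitals mark E-boxes (CANNTG), the site of basic helix-loop-helix factors such as Atoh7, which specifies ganglion cells. The Slc17a6 window is chr7:51621580-51621879 on the plus strand, and the Pou4f1 window is chr14:104467950-104468249 on the minus strand. The Pou4f1 gene span ends at 104468118, so the start used for its window lies inside that span and not at its 5′ end.
Slc17a6: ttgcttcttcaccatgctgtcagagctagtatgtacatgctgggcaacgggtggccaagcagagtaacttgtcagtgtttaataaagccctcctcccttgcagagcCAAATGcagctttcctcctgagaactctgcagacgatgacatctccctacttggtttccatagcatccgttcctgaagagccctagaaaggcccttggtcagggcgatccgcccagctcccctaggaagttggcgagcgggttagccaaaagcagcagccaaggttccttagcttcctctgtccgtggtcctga
Pou4f1: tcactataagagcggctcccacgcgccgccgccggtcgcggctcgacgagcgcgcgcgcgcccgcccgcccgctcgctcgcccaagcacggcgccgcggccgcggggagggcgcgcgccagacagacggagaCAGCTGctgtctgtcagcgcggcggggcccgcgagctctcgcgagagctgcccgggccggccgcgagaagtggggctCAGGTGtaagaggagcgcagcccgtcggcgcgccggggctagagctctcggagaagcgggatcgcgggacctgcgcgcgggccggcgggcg
The Slc17a6 window holds 1 E-box and the Pou4f1 window 2, and 72.3% of 32851 promoters of the same length hold at least 1. The GC box GGGCGG was found 1 time and 2 times, in the same order, against 35.7% of promoters with at least 1. The core CATTAA of the Brn3 site, searched on both strands as were the others, was in neither window and in 8.84% of promoters. The Pou4f1 window has 57 CpG dinucleotides and that of Slc17a6 has 8, against a median of 7. No binding or methylation was measured here, and a match in these letters is a description only.

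Counted together at 1 week, 4 of the 9 genes were above 0, against 46.9% of all genes, with a median of -0.08 against -0.0081 over all genes. Unadjusted p was under 0.05 for 2, Nrn1 and Slc17a6, both lower, against 4.22% of all genes (1.87% higher, 2.36% lower). The groups did not overlap for 5, against 26.3% of all genes. They were Nrn1, Thy1 and Slc17a6, lower in MPTP (13.8% of all genes), and Rbpms and Nefm, higher (12.5%).

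At 4 weeks 4 of the 9 were above 0, against 51.8% of all genes, with a median of -0.02 against 0.0043 over all genes. Unadjusted limma p was under 0.05 for 0, against 1.91% of all genes (1.10% higher, 0.813% lower). The groups did not overlap for 2, against 35.3% of all genes. They were Nrn1, lower in MPTP (17.9% of all genes), and Pou4f1, higher (17.4%).

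Over both times 3 of the 9 were above 0, against 49.0% of all genes, with a median of -0.03 against -0.0017 over all genes. Unadjusted p was under 0.05 for 2, against 4.76% of all genes. They were Nrn1, lower (2.47% of all genes), and Pou4f1, higher (2.30%). At an adjusted p under 0.05, limma called 0 of the 9 genes and 0 of all genes in each of these comparisons. The smallest adjusted p of any gene was 0.275 at 1 week, 0.645 at 4 weeks and 0.973 over both times. Between the times, the MPTP effects of the 9 genes differed by -0.11 to 0.25, and 0 had an unadjusted limma p under 0.05, against 1.96% of all genes.

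**Figure D3:**
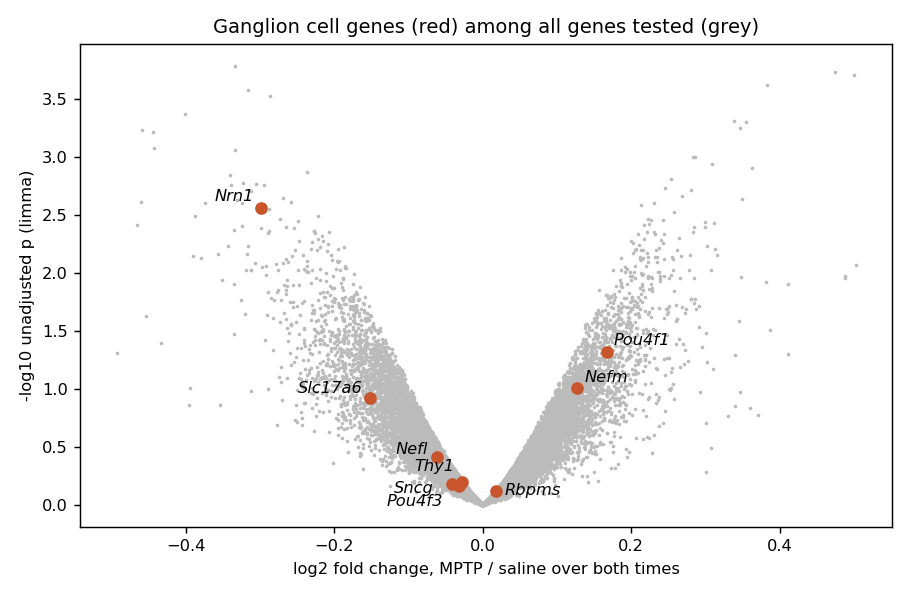
MPTP against saline over both times for 19938 genes in grey and 9 ganglion cell genes in red. The x axis is the log2 fold change and the y axis the unadjusted limma p on a -log10 scale. Nrn1, at -0.30, lies in the sparse upper left of the cloud, Pou4f1 and Nefm lie to the right, and Thy1, Sncg, Pou4f3, Nefl and Rbpms lie near 0.

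Time was compared within each treatment. In saline, Slc17a6 stood at -0.26 ± 0.12 (unadjusted p = 0.0615) and Nrn1 at -0.20 ± 0.11 (unadjusted p = 0.0963) at 4 weeks against 1 week, both with an adjusted p of 1.00 by limma. Both were lower at 4 weeks without overlap, as was Nefl at -0.13 ± 0.10. Nefm at 0.18 ± 0.10 and Pou4f3 at 0.18 ± 0.14 were higher without overlap. These 5 of 9 compare with 27.7% of all genes, and unadjusted limma p was under 0.05 for 0 of 9, against 2.13% of all genes. Without saline 1 week array 2 the time difference of Nrn1 in saline was -0.05 ± 0.10. In MPTP retinas the 9 genes ranged from -0.13 to 0.11 between the times, and 0 had an unadjusted p under 0.05 by limma, against 9.79% of all genes. No overlap was seen for Thy1 (0.08 ± 0.09), Rbpms (-0.08 ± 0.08) and Pou4f1 (-0.13 ± 0.11), 3 of 9, against 44.3% of all genes.

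Other ganglion cell genes were read from a list of 34 that holds none of the 10, with cytoskeletal, identity and subtype genes, of which 32 were measured. Over both times 22 were above 0 and 10 below, against 49.0% of all genes above 0, with a median of 0.03 against -0.0017 over all genes. By limma, adjusted p was under 0.05 for 0, and unadjusted p for 3, against 4.76% of all genes. The transcription factor Isl1, which bipolar and amacrine cells also make, stood at -0.17 ± 0.06. The intermediate filament Ina stood at 0.23 ± 0.09 and Resp18 at 0.23 ± 0.10. Ina was 9.88 and 9.99 in saline and 10.45 and 10.13 in MPTP at 1 week, and 10.06 and 9.94 in saline and 10.13 and 10.08 in MPTP at 4 weeks. Both MPTP arrays were above both saline arrays at each time, as they were for 12.5% of all genes at 1 week and 17.4% at 4 weeks. The highest was MPTP 1 week array 1, one of the arrays that stand apart. Without both of these arrays Ina stood at 0.15 ± 0.07 and Resp18 at 0.15 ± 0.09 over both times, with unadjusted limma p of 0.0586 and 0.126, and Isl1 at -0.18 ± 0.07. At 1 week the list median was 0.04 and at 4 weeks 0.01. Opn4, the photopigment of intrinsically photosensitive ganglion cells, stood at -0.22 ± 0.09 at 1 week (unadjusted p = 0.0339) and 0.05 ± 0.09 at 4 weeks, with a limma adjusted p of 1.00 at both times.

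A list of 19 ganglion cell subtype genes, some of them also in the list above, had 16 measured. Over both times 9 were above 0 and 7 below, with a median of 0.0042, against 49.0% of all genes above 0. Limma gave 0 at an unadjusted p under 0.05, against 4.76% of all genes. Without both arrays that stand apart 7 were above 0 and 9 below, with a median of -0.0012. In that fit 2 higher and 1 lower had an unadjusted limma p under 0.05, against 5.90% of all genes. Families of the listed genes, a list of 14 with the POU4 genes among them, had 12 measured and a median of -0.01 over both times. Of these, 6 were above 0 and 6 below, and 3 had an unadjusted limma p under 0.05 (Ina and Pou4f1 higher, Sncb lower), against 4.76% of all genes. The beta-synuclein gene Sncb had the smallest p of that list and stood at -0.21 ± 0.06 (unadjusted p = 0.00641, limma adjusted p = 0.973), while Sncg stood at -0.03 ± 0.08.

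Genes that ganglion cells are known to induce after axon injury formed a list of 20, of which 19 were measured. Over both times 15 were above 0 and 4 below, against 49.0% of all genes above 0, with a median of 0.04 against -0.0017 over all genes. Limma called 0 at an adjusted p under 0.05, and 1 gene, Atf3, had an unadjusted p under 0.05, against 4.76% of all genes. Without both arrays that stand apart 13 were above 0 and 6 below. The stress-induced transcription factor Atf3 stood at -0.17 ± 0.07, the stress factor Ddit3 (CHOP) at 0.13 ± 0.06 and the receptor Tnfrsf12a at 0.14 ± 0.07. At 1 week 11 of the list were above 0 and 8 below, against 46.9% of all genes above 0, with a median of 0.05. At 4 weeks 11 were above 0 and 8 below again, against 51.8% of all genes above 0, with a median of 0.02.

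The genes most like Nrn1 were named by their Pearson correlation with it over the 8 arrays, among 9485 genes above percentile 50 of the mean signal. They were Ptges3, a co-chaperone (0.985), Rwdd4a (0.978), Ldha, a lactate dehydrogenase subunit (0.977), Cltc, the clathrin heavy chain (0.962), and Slc25a23, a mitochondrial carrier (0.962). These values describe likeness over arrays that share 4 groups, and carry no test. Without both arrays that stand apart they lay between 0.968 and 0.988 for these 5 genes. Ldha, for example, was 11.37 and 11.48 in saline and 11.19 and 11.17 in MPTP at 1 week, and 11.26 and 11.32 in saline and 11.21 and 11.10 in MPTP at 4 weeks. Within the ganglion cell set the closest were Slc17a6 (0.750) and Nefl (0.647), which were 0.488 and 0.311 without both arrays that stand apart. The lowest was Nefm (-0.409). Without both arrays the lowest was Pou4f1 (-0.831), and Nefm was -0.596. The genes most like the mean of the 9, chosen the same way among 9478 genes, were Psmf1 (0.969), Tenm2 (0.959), Nrip3 (0.953), Ncstn (0.9504) and Ppp3ca (0.948). Without both arrays these were 0.874, 0.869, 0.820, 0.960 and 0.927, in the same order.

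**Figure D4:**
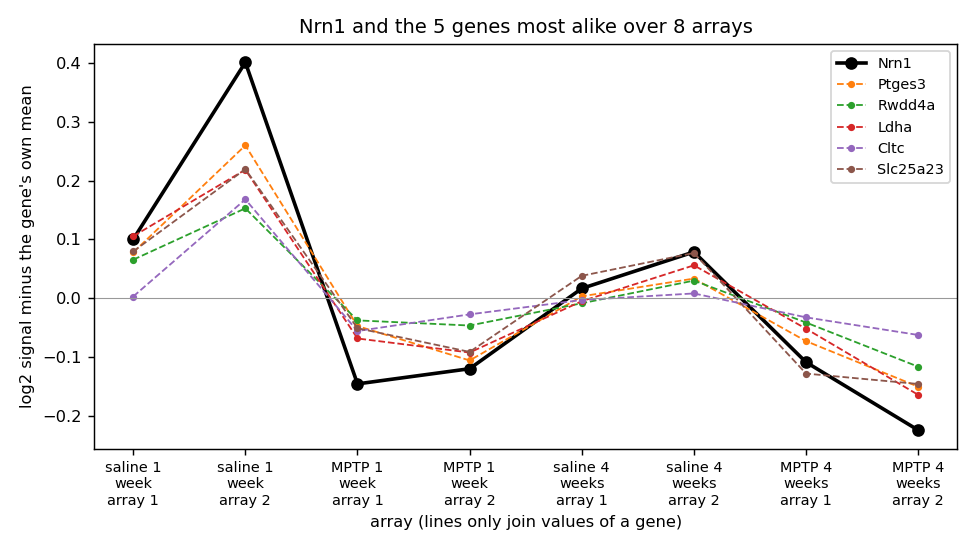
Log2 signal minus the gene's own mean on each of the 8 arrays, for Nrn1 (black, solid) and the 5 genes with the highest correlation to it (coloured, dashed). All 6 genes were highest in saline 1 week array 2 and lowest in MPTP 4 weeks array 2.

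Without saline 1 week array 2 and MPTP 1 week array 1, the arrays that stand apart, 0 of the 9 genes passed at an adjusted p under 0.05 in any comparison by limma. That leaves 1 array per group at 1 week, so the spread within groups comes from the arrays of 4 weeks alone. At 1 week Sncg then stood at -0.28 and Nefm at 0.31, each from 1 array against 1. At 4 weeks Nrn1 stood at -0.21. In the fit over both times, unadjusted limma p was under 0.05 for Nrn1 and Pou4f1, against 5.90% of all genes. Nrn1 stood at -0.22 ± 0.06 over both times in that fit (unadjusted p = 0.00845, adjusted p = 0.816).

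As a check of the labelled tissue, the 8 rod genes had a median percentile of 99.8 of the mean signal, and the 9 ganglion cell genes one of 87.1. The mean log2 signal of 16 lens genes was 6.74 and 7.85 in MPTP at 1 week, 7.02 and 7.18 in saline at 1 week, 6.91 and 7.35 in saline at 4 weeks, and 7.17 and 7.24 in MPTP at 4 weeks. The 12 pigment epithelium genes were highest in the same array, MPTP 1 week array 2, at 7.75, against 7.16 to 7.52 in the others. That array also had the lowest Sncg and the highest Nefl, Pou4f3 and Slc17a6 of the MPTP arrays, and the part of lens and pigment epithelium RNA in these values was not tested. Between both MPTP arrays of 1 week Nrn1 differed by 0.03 and the lens mean by 1.12. The part of lens and pigment epithelium RNA in the values of Nrn1 was not tested either. The 7 oligodendrocyte genes, which would mark optic nerve tissue, ranged from 6.54 to 6.80. Only some amacrine cells share the ganglion cell layer, and the amacrine list of 10 genes is for amacrine cells in general. Its mean log2 signal ranged from 8.07 to 8.15, with medians of -0.0071 at 1 week and -0.03 at 4 weeks in MPTP against saline.

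The 11 genes of Müller glia, the radial glia of the retina, had a lower mean in MPTP at 1 week. Their mean log2 signal was 9.16 and 9.25 in saline and 9.04 and 9.08 in MPTP at 1 week, and 9.20 and 9.10 in saline and 9.20 and 9.02 in MPTP at 4 weeks. The groups did not overlap at 1 week and overlapped at 4 weeks. Over both times 4 of the 11 were above 0, against 49.0% of all genes, with a median of -0.07 against -0.0017 over all genes. Limma gave 0 at an adjusted p under 0.05 and 2 at an unadjusted p under 0.05, Rlbp1 and Cd9, both lower, against 4.76% of all genes. Without both arrays that stand apart the list median over both times was -0.03. At 1 week it was then -0.05, with 5 above 0 and 6 below. On all 8 arrays the median at 1 week was -0.07, with 4 above 0 and 7 below. Rlbp1 encodes the retinaldehyde-binding protein CRALBP, which pigment epithelium makes too. It was 8.65 and 8.78 in saline and 8.19 and 8.20 in MPTP at 1 week, and 8.59 and 8.58 in saline and 8.44 and 8.16 in MPTP at 4 weeks. Like Nrn1, it was lower in all 4 MPTP arrays than in any saline array. Rlbp1 stood at -0.40 ± 0.08 over both times (unadjusted p = 4.26e-04, limma adjusted p = 0.973), and at -0.34 ± 0.09 without both arrays that stand apart. The part of Müller glia in the values of Nrn1 was not tested.

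**Figure D5:**
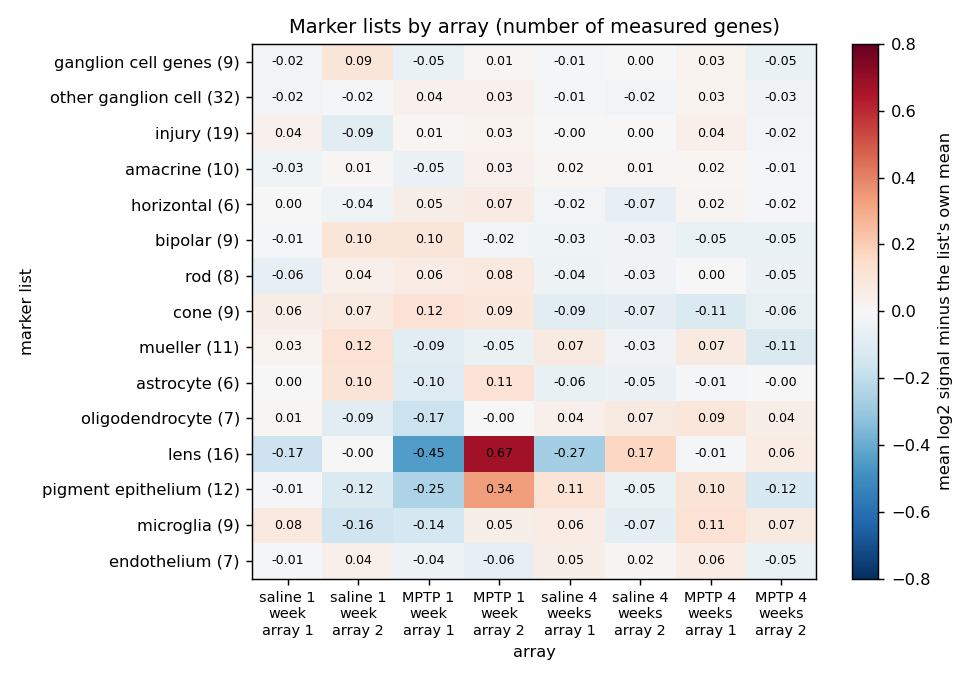
Mean log2 signal of marker lists on each of the 8 arrays, minus the mean of the list over arrays, with the number of measured genes in brackets. The row of the 9 ganglion cell genes lies between -0.05 and 0.09, and 6 of the other 14 rows have a narrower span, among them the amacrine row at -0.05 to 0.03. The lens row spans -0.45 to 0.67.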

How the data were processed

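The deposited log2 signals were produced by the authors with RMA in Affymetrix Expression Console (version not given in the sources used here), as the submitters' processing notes list. Total RNA (100 ng) was amplified and labelled with biotin, per the labels' protocols. Of 28944 probe sets, 21789 name exactly 1 gene in the platform annotation, and the brightest probe set per gene left 19938 genes, with no filter on dim genes. Each gene was fitted with limma 3.58.1 in R 4.3.3 (a mean per group, 4 residual degrees of freedom; treatment and time as additive terms for both times together, 5 degrees of freedom). All tests are two-sided, and p-values were adjusted by Benjamini-Hochberg over all genes, with a threshold of 0.05. Intervals are 95% and unadjusted. The number of arrays limits the precision. The code was tested on simulated data.

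The genes and lists were chosen with earlier results of these data known. All 10 listed genes are reported, and in other lists the examples are among the 3 members with the smallest unadjusted p. The genes most alike are the 5 with the highest correlation among genes above percentile 50 of the mean signal, without predicted, clone or olfactory and vomeronasal receptor names. Alternatives were other normalizations, probe set rules, fits, a block for the array number, and arrays left out. RefSeq names and positions are of GRCm38.p6. Python 3.11.15 with matplotlib 3.10.9 made the figures.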

Additional observations from a re-analysis of the deposited data

How the results depend on the processing

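Under all alternatives run, 0 of the 9 ganglion cell genes passed at an adjusted p under 0.05 in any comparison (137 counts). Over all genes the count was 0 too, except that 1 gene passed between 4 weeks and 1 week in MPTP without MPTP 1 week array 1 and without both arrays that stand apart. Nrn1 was lower in MPTP in each alternative, from -0.53 to -0.22 at 1 week, -0.27 to -0.16 at 4 weeks and -0.34 to -0.22 over both times. Over both times its unadjusted limma p ran from 8.65e-04 to 0.00900 and its adjusted p from 0.512 to 1.00. Deviations of same-numbered arrays correlated between -0.383 and 0.207 over 6 pairs of groups, so the numbers were not taken to pair samples. With the array number as a replicate block, Nrn1 over both times stood at -0.30 (limma adjusted p = 0.998), and 880 genes had an unadjusted p under 0.05, against 950 without it. With the numbers of MPTP at 1 week exchanged, chosen after seeing the data, the count was 1092, and 0 genes passed when adjusted. Neither block changed an adjusted call of the 9 genes. With the replicate block, unadjusted p was 0.0645 for Slc17a6 at 1 week and 0.0640 for Pou4f1 over both times, no longer under 0.05. A fit to only the groups compared was not run for the difference of effects, for both times together or for the F test. These use all 4 groups. Small values turned sign: Slc17a6 at 4 weeks was 0.00236 after quantile and 0.00439 after cyclic loess normalization, Rbpms between the times in MPTP was 0.00152 after quantile normalization, and Rbpms over both times was -8.64e-04 with array weights. Without both arrays that stand apart, Nefl was 0.0416 at 1 week, and over both times Thy1 was 0.0119, Rbpms -0.00317, Pou4f3 0.0213 and Nefl 0.00220. The median of the 9 genes was then 0.0416 at 1 week and -0.0591 for the difference of effects. Between the times in MPTP this median was 0.0712 after quantile and 0.0661 after cyclic loess normalization. The cause was not tested. With each array left out in turn, the median ran from -0.119 to 0.0102 at 1 week, 0.0187 to 0.122 for the difference of effects and -0.0914 to 0.0753 between the times in MPTP. At 1 week Nefl ran from -0.219 to 0.0102, Pou4f3 from -0.205 to 0.206 and Sncg from -0.246 to 0.0837. At 4 weeks Thy1 ran from -0.0117 to 0.0553, Pou4f3 from -0.199 to 0.0327, Sncg from -0.0340 to 0.0686, Nefl from -0.0776 to 0.0426 and Slc17a6 from -0.149 to 0.0988. Over both times Rbpms ran from -0.00239 to 0.0427, Pou4f3 from -0.132 to 0.0324 and Sncg from -0.0881 to 0.0439. A group left with 1 array was assumed to vary like the others. Of 725 single-gene values under alternatives, 23 turned sign. Pou4f3 was dim, which limits what its small differences show.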
